A study of Canis lupus familiaris with 12 samples.

Results

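S100A16 and 8 further genes of the S100 family (S100A1, S100A2, S100A4, S100A6, S100A10, S100A11, S100A13, and S100A14) were examined, 9 of the 13672 genes in the deposited RNASeq table of MDCKII cells. The members were listed by name. S100A16 was chosen by its CPM values in these libraries, which were already known to be very low in the KO lines, so its values are given as a description and without a test. The question addressed was whether other S100 genes share the near loss of S100A16. RNASeq was carried out on MDCKII cells, a canine kidney epithelial line, of 4 genotypes with 3 libraries each: WT cells, CGN-KO cells, CGNL1-KO cells, and cells with a KO of both genes (CGN/CGNL1 double-KO, dKO). CGN encodes cingulin and CGNL1 encodes paracingulin, proteins of the cytoplasmic face of epithelial junctions that link them to actin and myosin. All cells were untreated and on the MDCKII background. Each KO genotype was represented by 1 clonal line made by CRISPR/Cas9, so the effect of the KO and features of the clone cannot be told apart. The labels do not say whether the 3 libraries of a genotype came from separate cultures, and the p-values measure the spread between these libraries, which may be technical.

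S100 proteins are small calcium-binding proteins with a pair of EF-hands, a helix-loop-helix fold that holds the calcium ion. Most of them form dimers inside the cell, open a hydrophobic surface when calcium binds, and attach through it to partners such as annexins, non-muscle myosin 2, and p53. In epithelia the family is known for roles in membrane scaffolding, the cytoskeleton, growth, and differentiation. Most S100 genes of mammals lie side by side in 1 cluster. In the RefSeq gene order of the dog, S100A16 lies between S100A14 and S100A2, in a run that also holds S100A1, S100A13, S100A4, and S100A6, whereas S100A10 and S100A11 lie on another chromosome.

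The libraries held between 16837532 and 30086076 reads, recovered from the deposited values. The table gives CPM, read counts that the authors scaled to the size of each library with the normalization factors of edgeR. These values are used here to compare 1 gene between libraries and not to rank genes, because no gene lengths were at hand. CGN was at 199 to 233 CPM in WT and 198 to 213 CPM in CGNL1-KO libraries, against 47.0 to 56.5 CPM in CGN-KO and 39.7 to 45.3 CPM in dKO libraries. CGNL1 was at 7.74 to 12.3 CPM in WT libraries, 5.04 to 6.92 CPM in CGN-KO libraries, 1.76 to 3.02 CPM in CGNL1-KO libraries, and 1.11 to 1.76 CPM in dKO libraries. The targeted mRNA was therefore lower in each line labelled as its KO. Of the kidney epithelial markers, 10 of 10 were in the table. They summed to 7430 to 7536, 7753 to 7866, 7840 to 8121, and 7339 to 7508 CPM in WT, CGN-KO, CGNL1-KO, and dKO libraries. Single markers went both ways, with PAX2 at 0.705 and KRT19 at 1.37 times the WT mean in CGN-KO cells. CDH16 was low, at 0.828 to 5.14 CPM over all libraries. Of the markers of other cell types, 1 of 7 for fibroblasts, 3 of 9 for immune cells (S100A8 among them), and 2 of 5 for endothelium could be read, and their levels differed somewhat between genotypes. In WT, CGN-KO, CGNL1-KO, and dKO libraries the fibroblast marker PDGFRA was at 2.705 to 5.48, 5.88 to 11.1, 3.75 to 9.81, and 4.94 to 6.996 CPM (limma adjusted p = 0.0489 for CGN-KO against WT). The immune markers summed to 6.12 to 6.54, 6.79 to 7.62, 6.31 to 7.90, and 7.80 to 8.25 CPM, and the endothelial markers to 1.47 to 2.04, 1.38 to 1.78, 2.52 to 2.98, and 0.690 to 0.853 CPM. Of the endothelial markers, KDR was lower in dKO than in WT cells (limma adjusted p = 0.000113) and VWF was below 1 CPM in every library. Their part in the S100 results was not tested.

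S100A16, a widely expressed member of the family that lies in the cluster beside S100A14, was at 31.6, 32.1, and 35.1 CPM in WT libraries 1, 2, and 3. In CGN-KO libraries 1, 2, and 3 it was at 2.21, 0.395, and 1.71 CPM. In CGNL1-KO libraries 1, 2, and 3 it was at 0.290, 0.361, and 0.375 CPM. In the dKO libraries it was at 0.0969 CPM (unnumbered library), 0.171 CPM (library 2), and 0.284 CPM (library 3). Every KO library lay far below every WT library. The mean level was 32.9 ± 1.87 CPM in WT, 1.44 ± 0.937 CPM for CGN-KO, 0.342 ± 0.0453 CPM for CGNL1-KO, and 0.184 ± 0.0943 CPM for dKO cells (SD, n = 3 each). This corresponds to 4.37%, 1.04%, and 0.558% of the WT mean. S100A16 was chosen for its low values in the KO lines, so its place among all genes is a description and no test. Of the 12650 genes tested (above 1 CPM in 3 or more libraries), S100A16 had the lowest log2 difference from WT in each of the 3 KO lines, at −3.88 (CGN-KO), −4.66 (CGNL1-KO), and −4.84 (dKO) on the log2(CPM + 1) scale. That scale understates the ratio of a gene that is close to 0, and the reads themselves give the ratio directly.

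The WT libraries together held 1852 S100A16 reads, the CGN-KO libraries 104, the CGNL1-KO libraries 20, and the dKO libraries 12. At equal depth the WT level was 21.5 times that of CGN-KO cells (exact 95% interval 17.6 to 26.4), 96.0 times that of CGNL1-KO cells (62.0 to 157.5), and 173.2 times that of dKO cells (98.9 to 335.8). These intervals, and those below, cover counting error only. The order of the means was WT, CGN-KO, CGNL1-KO, and dKO. The CGNL1-KO and dKO levels could not be told apart at this depth, as each CGNL1-KO library held 5 to 8 reads and each dKO library 2 to 7 reads, and CGN-KO library 2 with 8 reads lay within the counting intervals of the CGNL1-KO libraries. In RNA from whole cultures, fewer cells with S100A16 mRNA and less of it per cell cannot be told apart. The CGN-KO libraries differed among themselves by more than counting error. Library 1 (67 reads) had an exact Poisson interval of 1.71 to 2.81 CPM and library 3 (29 reads) of 1.147 to 2.46 CPM, whereas library 2 (8 reads) had an interval of 0.171 to 0.778 CPM. CGN itself was at 56.5, 48.3, and 47.0 CPM in the same CGN-KO libraries 1, 2, and 3. The mean S100A16 level of CGN-KO cells was 3.20% of the WT mean without library 1 and 5.95% without library 2.

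**Figure D1:**
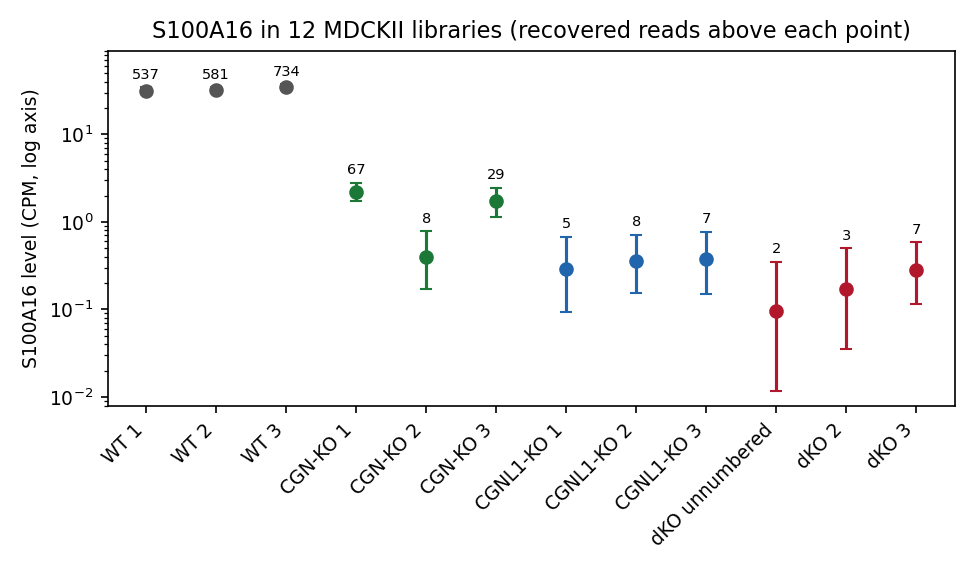
S100A16 level in CPM (log axis) in each of the 12 libraries. Bars are exact 95% Poisson intervals of the read count, and the number above each point is the number of recovered reads. The 3 WT libraries sit between 31.6 and 35.1 CPM and the 9 KO libraries between 0.0969 and 2.21 CPM, with CGN-KO libraries 1 and 3 above the other KO libraries.

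The other 8 S100 members did not share this loss. None of them came near the fall of S100A16, and the lowest level of any of them relative to WT was that of S100A14 in dKO cells. A gene was said to pass the test at a Benjamini-Hochberg adjusted p below 0.05 (limma, 12650 genes tested) and was called where it also changed by at least 2-fold. In CGN-KO cells against WT, 0 of 8 were called, where 1.31% of all genes tested were, and 2 of 8 passed the test at any fold (19% of all genes). In CGNL1-KO cells 0 of 8 were called (0.617% of all genes) and 0 of 8 passed at any fold (10.3% of all genes). In dKO cells 1 of 8 was called (1.41% of all genes) and 3 of 8 passed at any fold (26.3% of all genes), all 3 of them lower (11.5% of all genes). Over the mean of the 3 KO lines against WT, 0 of 8 were called (0.791% of all genes) and 2 of 8, S100A10 and S100A14, passed at any fold, both lower (23.3% of all genes passed in either direction). By the values alone, 2 of 8 members lay below all WT libraries in CGN-KO cells (17.5% of all genes), 0 in CGNL1-KO cells (11.1%), and 4 in dKO cells (21.8%), and 1, 0, and 0 lay above them (18.4%, 13.3%, and 23.2% of all genes). The median log2 difference from WT of the 8 members was 0.02 for CGN-KO, 0.02 for CGNL1-KO, and −0.21 for dKO cells, where the medians over all tested genes were all −0.00.

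**Figure D2:**
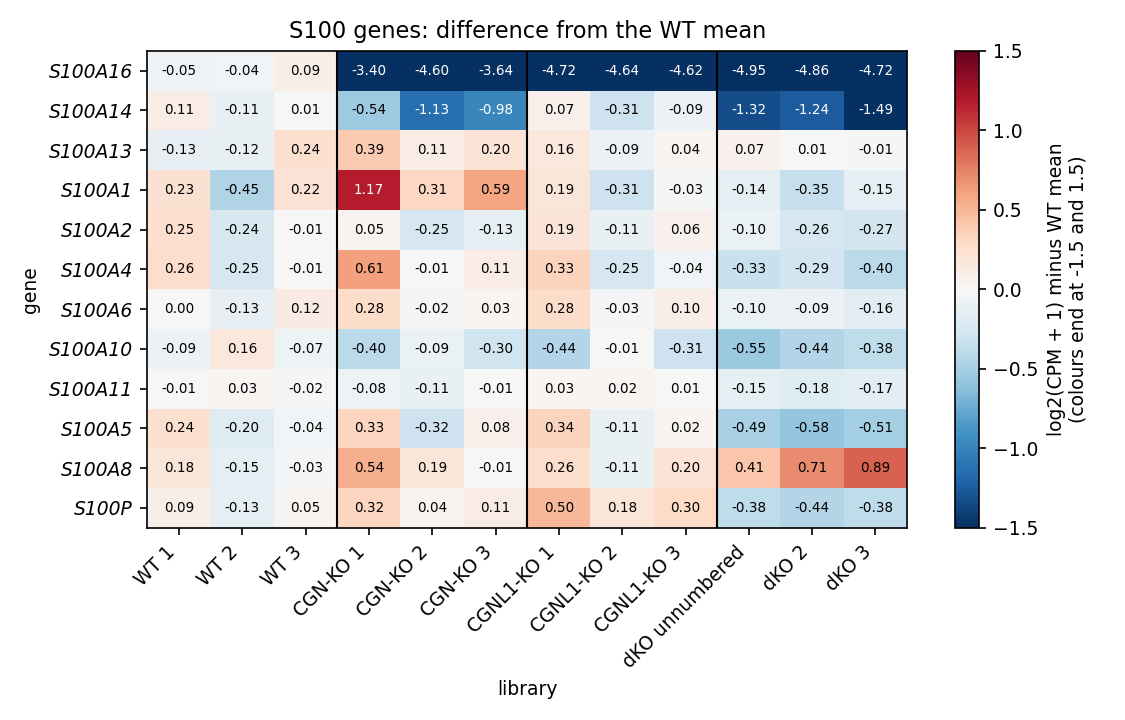
Difference of log2(CPM + 1) from the WT mean for the 9 members and for S100A5, S100A8, and S100P (rows) in the 12 libraries (columns). Colours end at −1.5 and 1.5, and the number in each cell is the difference. S100A16 is the only row that is below −3 in all 9 KO libraries, and S100A14 is the only other row below −1 in all 3 dKO libraries.

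S100A14, the gene directly beside S100A16, is an epithelial member that is known as a cytoplasmic and membrane-associated protein. It was the member with the largest change after S100A16. Its level was 217, 186, and 203 CPM in WT libraries 1, 2, and 3. In CGN-KO libraries 1, 2, and 3 it was 138, 91.5, and 102 CPM, all below the lowest WT library. In CGNL1-KO libraries 1, 2, and 3 it was 213, 163, and 190 CPM, which overlapped WT. In the dKO libraries it was 80.0 CPM (unnumbered), 84.7 CPM (library 2), and 71.3 CPM (library 3), all below both the WT and the CGN-KO libraries. S100A14 thus fell in CGN-KO cells by 0.88 on the log2 scale (SE 0.123, 1.84-fold, limma adjusted p = 8.73e-05) and in dKO cells by 1.35 (SE 0.123, 2.55-fold, limma adjusted p = 8.41e-07). In CGNL1-KO cells the log2 difference was −0.11 (95% interval −0.37 to 0.15, limma adjusted p = 0.670), although S100A16 was lower there than in CGN-KO cells. The difference between the CGN-KO and the CGNL1-KO line was itself past the threshold (log2 difference −0.77, SE 0.123, limma adjusted p = 0.00101), as was that between dKO and CGNL1-KO cells (−1.24, limma adjusted p = 5.87e-06). S100A14 was also lower in dKO than in CGN-KO cells (−0.47, limma adjusted p = 0.0255). This last difference was lost without CGN-KO library 1 (−0.30, limma adjusted p = 0.1), the unnumbered dKO library (−0.48, limma adjusted p = 0.0795), or dKO library 3 (−0.40, limma adjusted p = 0.127). Without CGN-KO library 1, which had the highest S100A14 level of its group, the fall in CGN-KO cells passed the 2-fold limit (−1.05).

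A pair of genes of the same run gave a comparison within each library. The ratio of the S100A14 level to that of S100A13, the next gene on the far side from S100A16, was 10.2, 8.68, and 7.30 in WT libraries 1, 2, and 3 and 8.12, 7.44, and 7.90 in CGNL1-KO libraries 1, 2, and 3. It was 4.47, 3.61, and 3.79 in CGN-KO libraries 1, 2, and 3 and 3.26, 3.599, and 3.08 in the dKO libraries. The CGN-KO and dKO libraries did not overlap the WT or CGNL1-KO libraries in this ratio. As the ratio is made from the S100A14 values given above, which are separated in the same way, it is a description and no further test.

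S100A1, a member best known from heart and skeletal muscle where it acts on calcium handling, moved the other way. It was at 2.36, 1.10, and 2.34 CPM in WT libraries 1, 2, and 3 and at 5.47, 2.57, and 3.31 CPM in CGN-KO libraries 1, 2, and 3. In CGNL1-KO libraries 1, 2, and 3 it was at 2.26, 1.31, and 1.82 CPM. The dKO libraries held 1.60 CPM (unnumbered), 1.25 CPM (library 2), and 1.58 CPM (library 3). Every CGN-KO library was above every other library, with between 20 and 166 S100A1 reads per library in all. S100A1 rose in CGN-KO cells by 0.69 on the log2(CPM + 1) scale (SE 0.215, limma adjusted p = 0.0331). That scale compresses the change of a gene this low. By the mean CPM S100A1 was 1.96 times as high in CGN-KO as in WT cells, and the log2 difference was 0.45 to 1.0 over the alternative fits. In dKO cells, in which CGN is also targeted, the log2 difference from WT was −0.21 (95% interval −0.67 to 0.24, limma adjusted p = 0.501), and S100A1 was lower in dKO than in CGN-KO cells (−0.91, SE 0.215, limma adjusted p = 0.0141). The rise in CGN-KO cells was no longer past the threshold without WT library 2 (0.47, limma adjusted p = 0.174), CGN-KO library 1 (0.45, limma adjusted p = 0.146), or CGN-KO library 3 (0.74, limma adjusted p = 0.0572), and the difference from dKO cells was lost without CGN-KO library 1 (−0.67, limma adjusted p = 0.0712) or dKO library 2 (−0.84, limma adjusted p = 0.0627). The annotated spans of S100A1 and S100A13 overlap in the RefSeq genes, and the strand setting of the counting is not given in the sources used here, so the reads of both genes are uncertain, among them the low S100A1 counts and the ratio of S100A14 to S100A13.

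S100A13, which is known for the release of FGF1 and IL-1α from cells, was at 21.3 to 27.8 CPM in WT, 25.3 to 31.0 CPM in CGN-KO, 21.8 to 26.2 CPM in CGNL1-KO, and 23.1 to 24.5 CPM in dKO libraries. The 4 groups overlapped, apart from the dKO libraries, which lay below the CGN-KO libraries. It did not pass the test against WT in any KO line (limma adjusted p = 0.121, 0.888, and 0.8998 in CGN-KO, CGNL1-KO, and dKO cells). Without WT library 3 it passed in CGN-KO cells (log2 difference 0.36, limma adjusted p = 0.0193). S100A2, the gene on the other side of S100A16 and known as an epithelial member that binds p53, was at 14.6 to 21.04 CPM in WT, 14.5 to 18.1 CPM in CGN-KO, 16.1 to 20.1 CPM in CGNL1-KO, and 14.3 to 16.3 CPM in dKO libraries. All 3 KO groups overlapped with WT. Its log2 differences from WT were −0.11 (95% interval −0.37 to 0.14), 0.05 (−0.21 to 0.30), and −0.21 (−0.46 to 0.05) in CGN-KO, CGNL1-KO, and dKO cells. The lower ends of all 3 intervals lie above −1, which would be a 2-fold fall.

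S100A4, a partner of non-muscle myosin 2 that is linked to cell motility, was at 99.2, 69.2, and 82.1 CPM in WT libraries 1, 2, and 3. It was at 127, 81.9, and 89.2 CPM in CGN-KO libraries 1, 2, and 3 and at 104, 69.4, and 80.5 CPM in CGNL1-KO libraries 1, 2, and 3. The dKO libraries held 65.5 CPM (unnumbered), 67.6 CPM (library 2), and 62.2 CPM (library 3) and lay below all other libraries. S100A4 did not pass the test against WT in dKO cells (log2 difference −0.34, 95% interval −0.67 to −0.01, limma adjusted p = 0.122). It did pass in a fit of the dKO and WT libraries only (limma adjusted p = 0.00502) and without CGN-KO library 1 (limma adjusted p = 0.0473). It was lower in dKO than in CGN-KO cells (−0.58, SE 0.156, limma adjusted p = 0.0297), which was lost without any 1 of CGN-KO library 1 (−0.39, limma adjusted p = 0.126), the unnumbered dKO library (−0.58, limma adjusted p = 0.0959), dKO library 2 (−0.60, limma adjusted p = 0.0677), or dKO library 3 (−0.54, limma adjusted p = 0.115). S100A6, known to bind annexins and the calcyclin-binding protein CACYBP, was at 1364 to 1617 CPM in WT, 1464 to 1807 CPM in CGN-KO, 1455 to 1800 CPM in CGNL1-KO, and 1327 to 1398 CPM in dKO libraries. It did not pass the test in any comparison, and its log2 differences from WT were 0.10 (95% interval −0.10 to 0.29), 0.11 (−0.08 to 0.31), and −0.12 (−0.31 to 0.08) in CGN-KO, CGNL1-KO, and dKO cells. Without CGNL1-KO library 2 it passed as lower in dKO than in CGNL1-KO cells (−0.30, limma adjusted p = 0.0396).

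S100A10 and S100A11 lie outside the cluster. S100A10, the partner of annexin A2, which keeps an open form without calcium, was at 22.3, 26.8, and 22.6 CPM in WT libraries 1, 2, and 3. It was at 17.8, 22.3, and 19.1 CPM in CGN-KO and at 17.4, 23.7, and 19.0 CPM in CGNL1-KO libraries 1, 2, and 3. The dKO libraries held 15.9 CPM (unnumbered), 17.3 CPM (library 2), and 18.1 CPM (library 3). The CGN-KO and dKO libraries lay below all WT libraries, by a small margin for CGN-KO library 2, and CGNL1-KO library 2 overlapped WT. S100A10 fell in dKO cells by 0.46 on the log2 scale (SE 0.112, 1.37-fold, limma adjusted p = 0.00638). The log2 differences in CGN-KO (−0.27, 95% interval −0.50 to −0.03, limma adjusted p = 0.109) and CGNL1-KO cells (−0.25, 95% interval −0.49 to −0.01, limma adjusted p = 0.190) did not pass the test. With the library number as a block in a fit of the 11 numbered libraries both passed (limma adjusted p = 0.0187 and 0.0398). The CGNL1-KO difference also passed without CGNL1-KO library 2 (−0.37, limma adjusted p = 0.0378). In the RefSeq genes, which are from another assembly than the one used for counting, S100A10 shares its span with a lncRNA gene of the table. Its reads are therefore uncertain.

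S100A11, known to bind annexin A1 and to act in the growth and repair of epithelia, was at 599, 615, and 596 CPM in WT and 572, 559, and 600 CPM in CGN-KO libraries 1, 2, and 3. It was at 615, 613, and 606 CPM in CGNL1-KO libraries 1, 2, and 3 and at 544 CPM (unnumbered), 532 CPM (library 2), and 537 CPM (library 3) in dKO cells. The dKO libraries lay below all others, with a narrow spread within each group. S100A11 fell in dKO cells by 0.17 on the log2 scale (SE 0.0479, 1.12-fold, limma adjusted p = 0.0175) and was lower in dKO than in CGNL1-KO cells (−0.18, limma adjusted p = 0.0160). The latter was lost without CGNL1-KO library 3 (limma adjusted p = 0.0510), dKO library 2 (limma adjusted p = 0.0680), or dKO library 3 (limma adjusted p = 0.0551). The fall against WT was lost without WT library 2 (−0.15, limma adjusted p = 0.0679), dKO library 2 (−0.16, limma adjusted p = 0.0668), or dKO library 3 (−0.17, limma adjusted p = 0.0535).

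**Figure D3:**
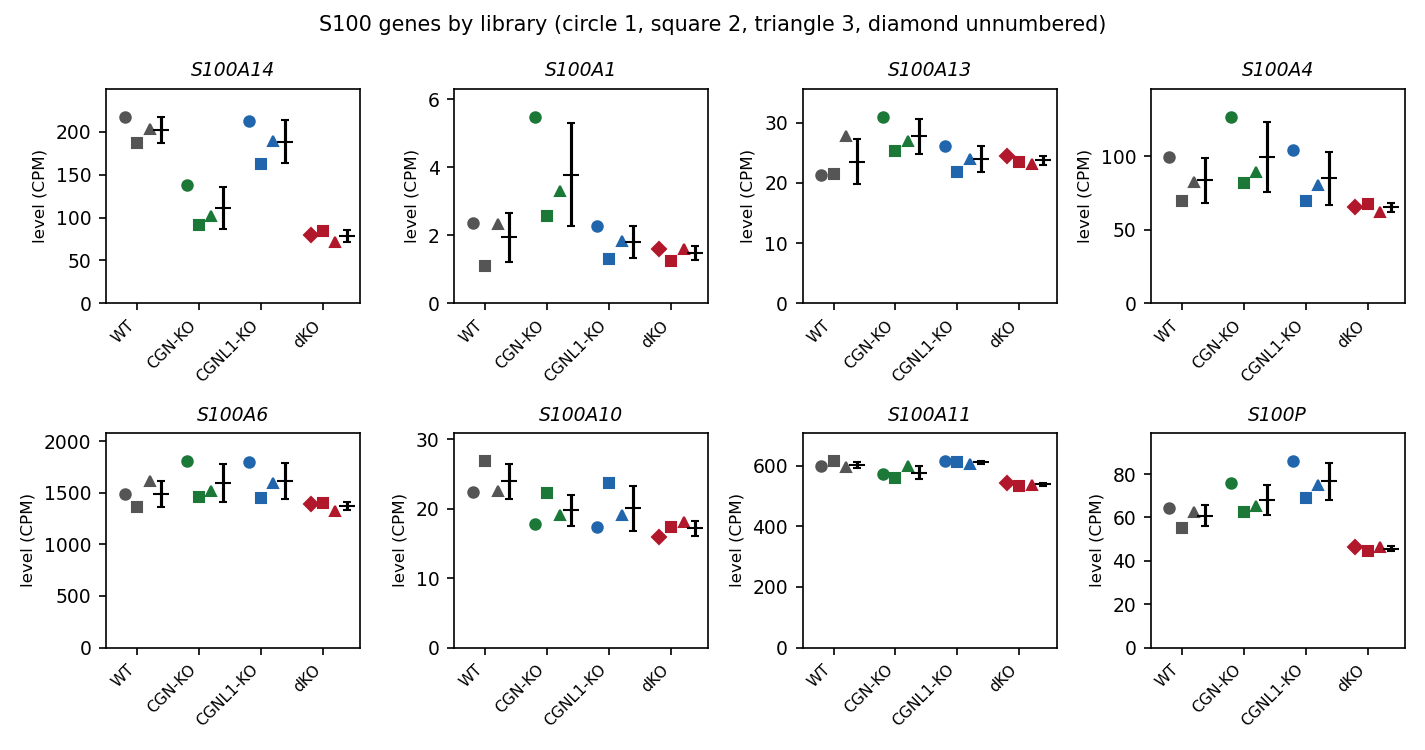
Level in CPM of S100A14, S100A1, S100A13, S100A4, S100A6, S100A10, S100A11, and S100P in each library (circle 1, square 2, triangle 3, diamond unnumbered), with the mean and SD of each genotype at its right. Each axis starts at 0. S100A14 is lower in the CGN-KO and dKO libraries, at 71.3 to 138 CPM, than in the WT and CGNL1-KO libraries, at 163 to 217 CPM.

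Libraries that bear the number 1 were the highest of their group in WT, CGN-KO, and CGNL1-KO cells alike for 4 of the 9 members (S100A1, S100A2, S100A4, and S100A14), against 15.6% of all genes tested. For CGN-KO and CGNL1-KO cells, libraries of the same number deviated together from their group means over all tested genes (r = 0.632, 0.475, and 0.179 for numbers 1, 2, and 3). With the number as a block in a fit of these 6 libraries, an alternative added after the data were seen, 4 of 8 members differed between CGN-KO and CGNL1-KO cells at an adjusted p below 0.05, against 1 of 8 without the block. Over all genes the share also rose, to 15.5% with the block from 5.19% without it. The 4 members were S100A14 (log2 difference −0.77, limma adjusted p = 1.09e-11), S100A1 (0.74, limma adjusted p = 0.000260), S100A4 (0.22, limma adjusted p = 0.00140), and S100A13 (0.20, limma adjusted p = 0.0386). In this fit S100P also differed (−0.17, limma adjusted p = 0.0134). None of the 8 was called in this comparison without the block (0.648% of all genes). In dKO against CGN-KO cells 3 of 8 passed at any fold (8.84% of all genes), all of them lower (3.91% of all genes), and 0 were called (0.356% of all genes). In dKO against CGNL1-KO cells 2 of 8 passed at any fold (14.4% of all genes), both lower (6.29% of all genes), and 1 was called (0.696% of all genes). These comparisons share libraries and are not independent of those with WT. By the moderated F test of limma for any difference among the 4 genotypes, 4 of 8 members passed (29.9% of all genes), namely S100A1 (adjusted p = 0.0162), S100A10 (adjusted p = 0.0319), S100A11 (adjusted p = 0.0259), and S100A14 (adjusted p = 1.12e-06).

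A further 3 genes with an S100 family name were in the table. S100P, known as a secreted ligand of the receptor RAGE and a partner of ezrin, was at 64.4, 55.2, and 62.6 CPM in WT and 85.9, 68.9, and 75.1 CPM in CGNL1-KO libraries 1, 2, and 3. In the dKO libraries it was at 46.2 CPM (unnumbered), 44.4 CPM (library 2), and 46.4 CPM (library 3), below all other libraries. S100P fell in dKO cells by 0.40 on the log2 scale (SE 0.0853, limma adjusted p = 0.00242) and rose in CGNL1-KO cells by 0.33 (limma adjusted p = 0.0210). This rise was lost without WT library 2 (0.26, limma adjusted p = 0.118), CGNL1-KO library 1 (0.24, limma adjusted p = 0.0723), or CGNL1-KO library 3 (0.34, limma adjusted p = 0.0549). S100A5, a member described in the olfactory epithelium, was at 1.05 to 1.77 CPM in WT and at 0.569 to 0.678 CPM in dKO libraries and fell by 0.53 (limma adjusted p = 0.0345). Its fall was lost in 5 of the 12 fits that left out 1 library (limma adjusted p = 0.0675 to 0.143). S100A8, a subunit of calprotectin in myeloid cells and stressed epithelia, was at 0.497 to 0.884 CPM in WT and at 1.21 to 2.07 CPM in dKO libraries and rose by 0.67 (limma adjusted p = 0.00945), which was lost without dKO library 3 (0.56, limma adjusted p = 0.0584). None of the 3 was called at 2-fold in any KO line against WT on the log2(CPM + 1) scale, which compresses the change of genes near 1 CPM. By the mean CPM, S100A8 was 2.49 times as high in dKO as in WT cells and S100A5 was 2.17 times as high in WT as in dKO cells. On the recovered reads both were past 2-fold in dKO cells with edgeR (1.33 for S100A8, adjusted p = 0.00868, and −1.09 for S100A5, adjusted p = 0.0281) and with DESeq2, and S100A8 also with a pseudocount of 0.1. In the RefSeq genes S100A5 and S100P each share their span with a lncRNA gene that is not in the table. Its bearing on their reads was not tested.

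The neighbours of S100A16 were then read along the RefSeq gene order, with the 20 nearest tested genes on each side. Of these 40 genes, 1 was called against WT, namely S100A14 in dKO cells, and 0 were called for either single KO, which lies near the shares of all genes called (1.41% for dKO, 1.31% for CGN-KO, and 0.617% for CGNL1-KO cells). At any fold 5, 2, and 8 of 40 passed the test in CGN-KO, CGNL1-KO, and dKO cells (19%, 10.3%, and 26.3% of all genes). Of the 32 neighbours without an S100 name, 0 were called in any KO line, 3, 2, and 5 passed at any fold, and the median log2 difference from WT was −0.01 for both single KO lines and 0.00 for dKO cells. These 32 include LOC102156046, which lies between S100A6 and S100A8 and was 0.88 higher in dKO than in WT cells on the log2 scale. Whether it is an S100 gene was not checked. On either side of S100A16, levels thus differed from one gene to the next. S100A14 fell in CGN-KO and dKO cells, and S100A2 did not pass the test in any line. With a pseudocount of 0.1, 3 of 40 were called in dKO cells (315 of all 12650 genes). With edgeR on the recovered reads 4 of 40 were called (328 of all 12650 genes). In both settings the share of neighbours called was above that of all genes.

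**Figure D4:**
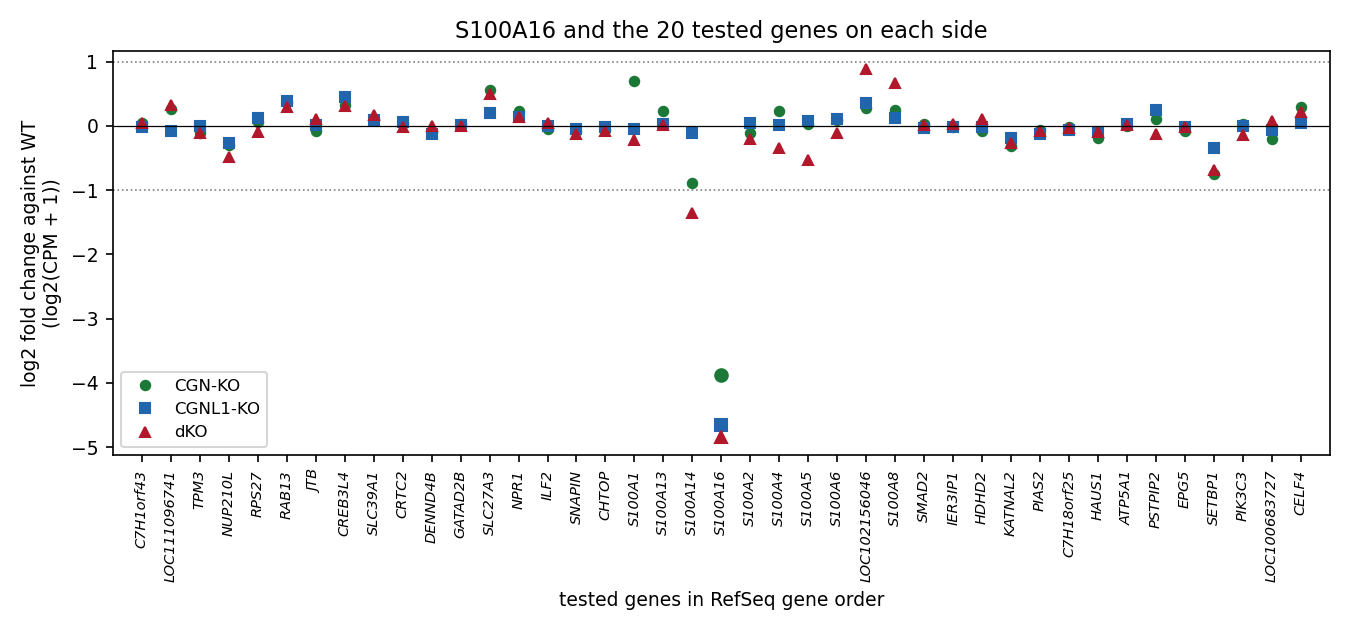
Log2 fold change against WT, on the log2(CPM + 1) scale, of S100A16 and of the 20 tested genes on each side of it in RefSeq gene order, for CGN-KO, CGNL1-KO, and dKO cells. Dotted lines mark a 2-fold change. S100A16 lies at −3.88, −4.66, and −4.84, and of the other genes only S100A14 in dKO cells (−1.35) is past a dotted line.

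Genes for proteins known to bind S100 proteins were taken from a list of 28, of which 20 were tested. None of the 20 was called in any KO line against WT, where 0.617% to 1.41% of all genes were called. At any fold 2 of 20 passed for CGN-KO (1 higher), 2 for CGNL1-KO (both higher), and 6 for dKO cells (4 higher), against 19%, 10.3%, and 26.3% of all genes, and the median log2 difference from WT was 0.03, 0.07, and 0.02. MYH14, the heavy chain of non-muscle myosin 2C, was higher in each KO line, by 0.61 for CGN-KO (SE 0.1004, limma adjusted p = 0.000418), 0.39 for CGNL1-KO (limma adjusted p = 0.0201), and 0.46 for dKO cells (limma adjusted p = 0.00306). The difference in CGNL1-KO cells was lost without WT library 2 (0.33, limma adjusted p = 0.105) or WT library 3 (0.38, limma adjusted p = 0.0666). MYH9 and MYH10, the heavy chains of non-muscle myosin 2A and 2B, did not pass the test in any KO line, with log2 differences of −0.04 to 0.15 for MYH9 and 0.08 to 0.12 for MYH10. ANXA1 (annexin A1, partner of S100A11), ANXA2 (annexin A2, partner of S100A10), and CACYBP (partner of S100A6) did not pass the test either. Their log2 differences from WT lay between −0.28 and 0.05, −0.07 and 0.14, and −0.12 and −0.07, respectively. ANXA1 was past the threshold in CGN-KO cells with DESeq2 (adjusted p = 0.0241) and without CGN-KO library 1 (limma adjusted p = 0.0282). With the block of the 11 numbered libraries ANXA1 in CGN-KO cells (limma adjusted p = 0.0304) and CACYBP in dKO cells (limma adjusted p = 0.0477) were past it too.

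A list of 48 other EF-hand genes, of which 41 were tested, was read in the same way. Only RCN1, which encodes the reticulum calcium-binding protein reticulocalbin, was called, in CGN-KO cells, where it fell by 1.57 on the log2 scale (SE 0.0994, 2.97-fold, limma adjusted p = 1.71e-08). RCN1 also fell in dKO cells by 0.48 (limma adjusted p = 0.00186), and its log2 difference in CGNL1-KO cells was −0.18 (limma adjusted p = 0.318). At any fold 9 of 41 passed for CGN-KO (4 higher, 5 lower), 4 for CGNL1-KO (3 higher, 1 lower), and 18 for dKO cells (8 higher, 10 lower), against 19%, 10.3%, and 26.3% of all genes. The medians over the 41 genes were −0.04, −0.00, and −0.05.

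The genes with the pattern most like that of S100A16 were found by Pearson's r of log2(CPM + 1) over the 12 libraries, as a description. As S100A16 separates WT from the KO libraries, genes that do the same come first. GLT1D1, a predicted glycosyltransferase, had r = 0.976 and was at 2.87 to 3.95 CPM in WT libraries against 0.114 to 0.650 CPM in the KO libraries. ABCB1, the efflux transporter P-glycoprotein, had r = 0.973 and was at 78.6 to 87.0 CPM in WT against 48.8 to 59.9 CPM in KO libraries. FHL1, a LIM-domain protein of the cytoskeleton, had r = 0.967 and was at 1.36 to 2.34 CPM in WT against 0.114 to 0.626 CPM in KO libraries. TLN2, a talin that links integrins to actin, had r = 0.967 and was at 35.1 to 40.4 CPM in WT against 14.7 to 20.2 CPM in KO libraries. ANXA13, an epithelial annexin, had r = 0.967 and was at 136 to 172 CPM in WT against 54.0 to 76.9 CPM in KO libraries. These 5 genes have the highest r of 12649 genes, so that the S100 genes lay below them is no test. GLT1D1 and FHL1 were above 1 CPM in WT libraries only and passed the filter through WT alone. S100A10 had r = 0.667 and took place 977 of 12649 genes, S100A14 had r = 0.593 and took place 1450, and the other members lay between −0.12 (S100A13) and 0.45 (S100A11).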

How the data were processed

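RNASeq libraries (TruSeq stranded mRNA, single reads) of the 12 MDCKII samples were aligned by the authors with STAR (version 2.7.0f) to CanFam3.1 and counted per gene with HTSeq (version 0.9.1), per the labels and methods. The annotation release and the strand setting are not given in the sources used here. The deposited signal values are CPM scaled by edgeR factors. Every value (100%, within 0.01 read) was a whole number of reads, which gave depth and counting intervals. The column of 1 dKO library carries no number, and it is called unnumbered.

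Log2(CPM + 1) of the 12650 genes above 1 CPM in 3 or more libraries was fitted with limma (version 3.58.1, R 4.3.3, eBayes with trend) in 1 fit of the 4 genotypes, with Benjamini-Hochberg adjustment. The methods of the study use edgeR, which needs counts, so edgeR (version 4.0.16) and DESeq2 (version 1.42.0) were run on the recovered reads as alternatives. Scripts were tested on simulated data. A 3 against 3 exact permutation test cannot give a p below 0.1 and was not used. The members and the gene lists were chosen with earlier results of these data known. The genes named were the members, the other S100 genes of the table, CGN, CGNL1, 6 partners (ANXA1, ANXA2, CACYBP, MYH9, MYH10, MYH14), called genes of the lists, the genes on either side of S100A16, and the 5 genes most like it. Some cell type markers and LOC102156046 were named as well. Gene order came from RefSeq (assembly UU_Cfam_GSD_1.0, another build), so no coordinates are given.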

Additional observations from a re-analysis of the deposited data

Results flagged for a closer look

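The following results stood out because a difference between KO lines was itself past the threshold (limma adjusted p below 0.05), so that the effects against WT differed between lines. Between CGN-KO and CGNL1-KO cells this was S100A14 (log2 difference −0.774, adjusted p = 0.00101, limma), with every CGN-KO library below every CGNL1-KO library. Between dKO and CGN-KO cells these were S100A1 (−0.906), S100A4 (−0.576), S100A14 (−0.469), and S100P (−0.557), with limma adjusted p = 0.0141, 0.0297, 0.0255, and 0.000828, each with the dKO libraries below the CGN-KO libraries. Between dKO and CGNL1-KO cells these were S100A14 (−1.24), S100A11 (−0.184), S100A5 (−0.61), and S100P (−0.728), lower in dKO cells with limma adjusted p = 5.87e-06, 0.016, 0.0265, and 3.22e-05, and S100A8 (0.55), higher in dKO cells with limma adjusted p = 0.0446. The S100A8 difference was lost in 9 of 20 alternatives (DESeq2, a pseudocount of 0.1, and 7 fits that left out 1 library, with adjusted p of up to 0.196), and the S100A5 difference in 5 of 20 (all with 1 library left out, limma adjusted p of up to 0.0943). As each KO genotype is 1 clonal line, differences between the genotypes and between clones cannot be told apart.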

How the results depend on the processing

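Over 93 single-gene results and 1871 alternatives, 1787 values stayed on the same side of the threshold with the same direction, 50 passed results no longer passed, 34 newly passed, and 0 reversed. In 38 cases the sign of a value that passed in neither fit changed, with sizes of up to 0.142. S100A14 stayed past the threshold in every alternative in CGN-KO against WT (−1.05 to −0.76), dKO against WT (−1.41 to −1.26), CGN-KO against CGNL1-KO, and dKO against CGNL1-KO cells. S100A10 did so in dKO against WT cells (−0.50 to −0.37).

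Of the other 8 S100 members, counts at 2-fold moved from 0 to 1 in CGN-KO against WT with edgeR (309 of all 12650 genes). They did so in CGN-KO against CGNL1-KO with edgeR and DESeq2 (146 and 144 genes). In dKO against CGN-KO cells they did so with a pseudocount of 0.5 or 0.1, edgeR, or DESeq2 (71, 103, 118, and 117 genes). In each of these the member called was S100A1, with log2 differences of up to 1.0, 1.13, and −1.38. Counts at any fold in CGN-KO against CGNL1-KO cells moved from 1 to 2 with edgeR, DESeq2, and scaling by library totals (5.23%, 6.19%, and 5.51% of all genes). In CGN-KO against WT cells they moved from 2 to 1 in a fit of these groups only (17.2% of all genes). Neighbours of S100A16 called in CGN-KO against WT cells numbered 1 with a pseudocount of 0.1 or DESeq2 and 2 with edgeR, against 0. Over all 12650 genes 292, 305, and 309 were called in these fits. In dKO against WT cells the neighbours called numbered 3 with a pseudocount of 0.1 and 4 with edgeR or DESeq2, against 1. Over all genes 315, 328, and 326 were called in these fits. Over the mean of the 3 KO lines 1 neighbour was called with edgeR or DESeq2 (214 and 215 of all genes), against 0. Of the 5 genes most like S100A16, 1 was kept by Spearman's rho (FHL1). The causes were not tested.

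With the replicate block over the 11 numbered libraries, 4 members passed in CGN-KO against WT (S100A10 among them) and 1 (S100A10) in CGNL1-KO against WT. In CGN-KO against CGNL1-KO cells 3 members passed. Without the block these counts were 2, 0, and 1. In the block of the CGN-KO and CGNL1-KO libraries only, 4 members passed. Over all genes the shares passing with the 11-library block were 27.1%, 15%, and 9.12%, against 19%, 10.3%, and 5.19% without it. Same-numbered WT and CGN-KO libraries deviated together for numbers 1 and 2 but not for number 3 (r = 0.373, 0.318, and −0.0822). The same held for WT and CGNL1-KO libraries (0.329, 0.371, and 0.0110). For the dKO libraries r was −0.235 to 0.0859. At each number r was highest for CGN-KO with CGNL1-KO libraries. The labels do not say whether libraries of the same number belong together, and this was not tested.

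Leaving out 1 library gave 0 to 1 members called in CGN-KO against WT and in dKO against CGN-KO cells (152 to 175 and 37 to 58 of all genes). At any fold 1 to 3 members passed in CGN-KO against WT (12.85% to 23.11% of all genes). In CGNL1-KO against WT 0 to 1 passed (6.688% to 11.24%), and in dKO against WT 2 to 4 (18.52% to 30%). Over the mean of the KO lines 1 to 2 passed (14.81% to 25.59%). In CGN-KO against CGNL1-KO 1 to 2 passed (2.696% to 8.632%). In dKO against CGN-KO 0 to 3 passed (4.316% to 11.95%), and in dKO against CGNL1-KO 1 to 4 (8.743% to 16.28%). The shares of all genes thus also moved with the library left out. By the F test 2 to 5 members passed, with no such share at hand. Leaving out 1 library also gave 0 to 1 called neighbours in CGN-KO against WT cells (152 to 175 of all genes). Over all 12650 genes, edgeR called 309, 157, and 328 genes in CGN-KO, CGNL1-KO, and dKO against WT, DESeq2 305, 157, and 326, and limma 166, 78, and 178. Depth limits S100A16 in the KO lines, S100A1, S100A5, and S100A8.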
